A study of Mus musculus with 401 samples.

Results

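The genes described here encode the nuclear subunits of the mitochondrial respiratory chain, complexes I to V, in single mouse oocytes and in pools of the cumulus cells that surrounded them. They were chosen by symbol: protein-coding genes of both count tables whose symbols begin with Nduf and a subunit letter (a, b, c, s or v), Ndufab1, Sdha to Sdhd, Uqcr, Cyc1, Cox4 to Cox8 or Atp5. This took 89 genes of the 39808 in both tables, of which 36 belong to complex I, 4 to complex II, 9 to complex III, 19 to complex IV and 16 to complex V. The remaining 5, Sdhaf1 to Sdhaf4 and Atp5s, are assembly or coupling factors and no subunits of the chain. Another 13 genes with such symbols were pseudogenes or had other biotypes and were left out.

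All mice were B6D2F1 (C57BL/6 x DBA/2). The first set held 11 mouse labels under hyperovulation: Young (2 months, AL, that is fed ad libitum, 2 labels), Middle (9 months, AL, 4 labels), Old (14 months, AL, 2 labels, 1 of which, Old1_2, joins 2 mice) and CR (9 months, calorie restriction, 3 mice). The second set held 30 mice, all AL: 2mo (2 months, 5 mice), 4mo (4 months, 8), 9mo (9 months, 4) and 14mo (14 months, 5) with hyperovulation, and 2moNoH (2 months without hyperovulation, 8). Hyperovulation was an injection of either eCG (equine chorionic gonadotropin) or CARD HyperOva before the ovaries were collected, and which of them a mouse received was not given in the sources used here. Each oocyte came from a fully grown follicle, at the germinal vesicle stage, and was read by RamDA-seq, a full-length total RNA method, as was the pool of cumulus cells of the same follicle. In such a pool, fewer cells and less RNA per cell cannot be told apart.

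Of 401 libraries, 399 were used, with totals of 559305 to 4536690 counts in oocytes and 510029 to 2501010 in cumulus pools. The oocyte and the cumulus library of 1 follicle of mouse Middle3 (2 libraries) carried markers against their labels and were left out, so Middle3 rests on 1 oocyte and 1 cumulus library. The label of the oocytes was borne out by 13 oocyte markers, summed to 18883 to 31350 CPM (counts scaled to a common library total) per mouse, and that of the cumulus pools by 12 cumulus markers, summed to 8224 to 18600 CPM. Cumulus markers in oocytes reached 178.1 CPM in the second set and 1367 CPM in the first, in Old1_2.

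Electrons enter the respiratory chain at complex I (NADH dehydrogenase) or complex II (succinate dehydrogenase), pass through ubiquinone to complex III and through cytochrome c to complex IV (cytochrome c oxidase), and the proton gradient so built drives complex V (ATP synthase). Mitochondrial DNA encodes a few core subunits of complexes I, III, IV and V, while all of complex II and most subunits of the others are made from nuclear genes. Several complex IV subunits and the c-ring of complex V are encoded by small sets of paralogs with tissue-typical use. A growing oocyte relies on its own mitochondria for ATP, and cumulus cells pass it pyruvate, which they make by glycolysis.

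At 2 months, the 89 genes together took 0.367 to 0.390% of all counts of a mouse in oocytes and 0.498 to 0.551% in cumulus pools. Over all 41 mouse labels the shares ran from 0.288 to 0.445% in oocytes and from 0.427 to 0.656% in cumulus pools, and the cumulus shares of the first set (0.577% and more) lay above those of every mouse of the second (at most 0.570%). Both count tables were prepared separately, so levels were compared within a set.

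**Figure D1:**
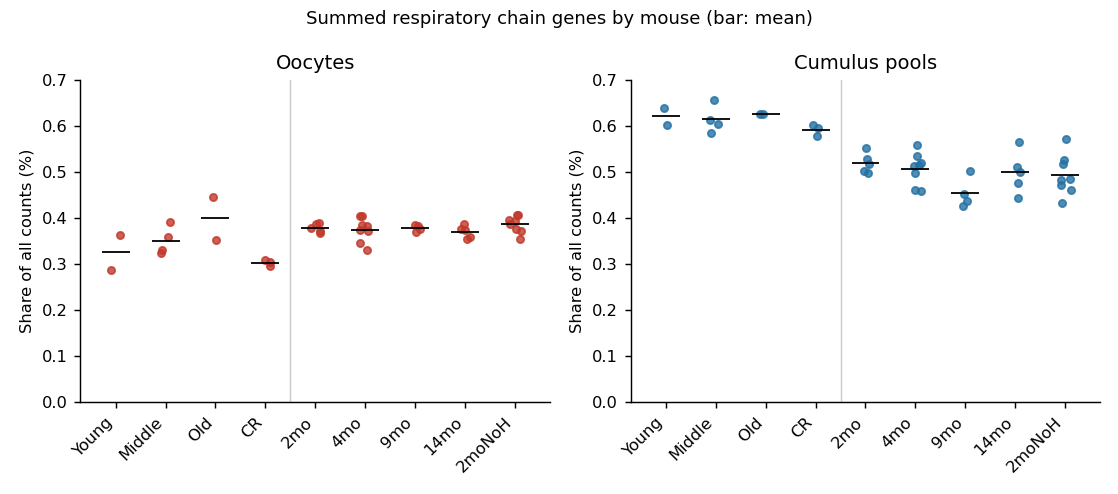
Share of all counts (%) taken by the 89 genes in each mouse, by group, for oocytes (left) and cumulus pools (right). Points are mice, bars group means, and the vertical line parts the first set from the second. Oocytes lie between 0.288 and 0.445% and cumulus pools between 0.427 and 0.656%, and the 3 CR mice (0.295 to 0.309%) lie below the 4 Middle mice (0.323 to 0.391%) in oocytes.

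Levels were compared between genes per kilobase (RPKM, here the scaled CPM of a mouse divided by the gene's length). In oocytes of the 5 mice at 2 months, the highest was Cox6a1, a small nuclear subunit of complex IV, at 215.8 ± 23.7 RPKM (SD, n = 5). Sdhd, a membrane anchor of complex II, and Ndufa2, a complex I subunit, followed at 150.9 ± 21.6 and 150.9 ± 18.1 RPKM, with ranges that overlap each other. Next came Atp5a1, the alpha subunit of the ATP synthase head, at 127.0 ± 8.01 RPKM. In cumulus pools the order was led by complex V. Atp5g3, a c-ring gene, had 169.1 ± 6.76 RPKM, Atp5a1 165.8 ± 14.1 RPKM and Atp5b, the catalytic beta subunit, 155.7 ± 10.6 RPKM, and these 3 did not differ beyond their ranges over mice. Cox6a1 came next at 140.5 ± 24.1 RPKM. The median subunit had 20.8 RPKM in oocytes and 17.9 RPKM in cumulus pools. At the other end, Cox8b was listed at 0 in all 5 oocyte mice and had 0.382 RPKM in cumulus pools, Cox7a1 had 0.351 RPKM in oocytes, and Cox6a2 and Cox8c were at 0 in cumulus pools. Cox7a1, Cox6a2 and Cox8b are the forms known from heart and skeletal muscle, and Cox8c the form known from testis.

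Subunits that sit side by side in the enzyme were far apart in level. In oocytes at 2 months, Uqcrc2, a core protein of complex III, had 81.2 ± 5.76 RPKM. Its partner core protein Uqcrc1 had 1.63 ± 0.563 RPKM, and Cyc1, the cytochrome c1 haem protein, 9.08 ± 1.22 RPKM. The Rieske iron-sulfur protein Uqcrfs1 had 20.7 ± 1.38 RPKM. In cumulus pools the same 4 genes had 36.2, 26.2, 46.4 and 25.7 RPKM, so the core proteins were close to each other. Within complex I, Ndufs1, which carries iron-sulfur clusters of the electron path, had 3.09 RPKM in oocytes, against 30.8 for the flavin-bearing Ndufv1. Across all 36 complex I genes, levels ran from 2.49 to 150.9 RPKM in oocytes and from 2.36 to 64.4 in cumulus pools.

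**Figure D2:**
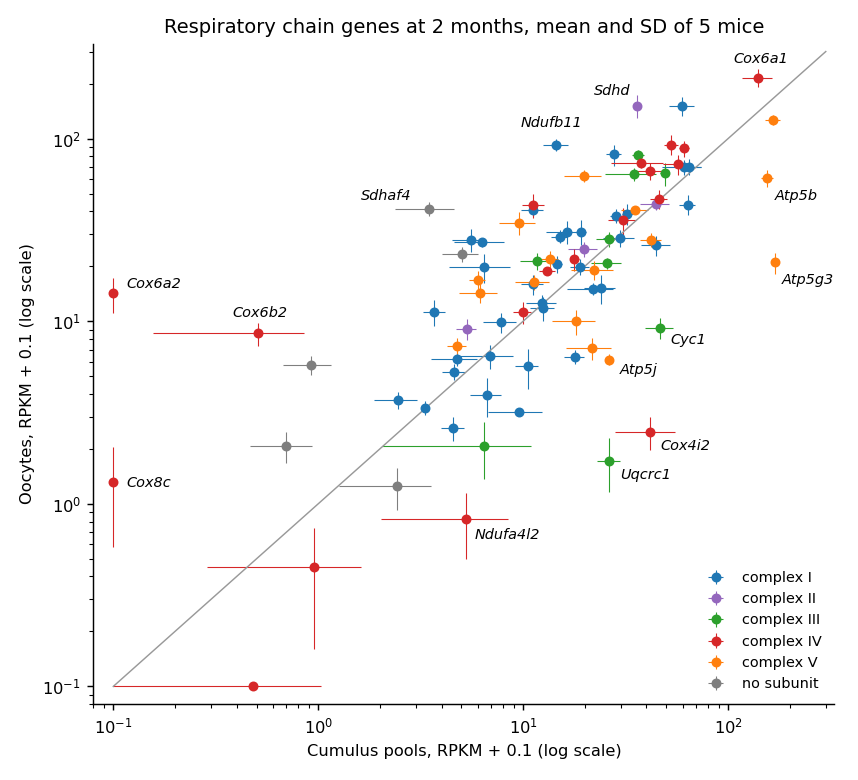
Level of each of the 89 genes at 2 months, cumulus pools (horizontal) against oocytes (vertical), as RPKM + 0.1 on log axes, with colour for the complex. Points are means and bars SDs of 5 mice, and the line marks equal levels. Uqcrc1, Cyc1, Cox4i2 and Atp5g3 lie well below the line, and Cox6a2, Cox6b2, Cox8c, Sdhaf4, Ndufb11 and Sdhd well above it.

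Oocytes and cumulus pools of the same follicles were then compared gene by gene in the 5 mice at 2 months, on counts summed per mouse and scaled together by TMM (edgeR's quasi-likelihood test with Benjamini-Hochberg adjustment). All 89 genes were tested, and 46 were higher and 24 lower in oocytes, 70 in all, where 73.2% of all genes tested were called, 34.9% higher and 38.3% lower. The count of calls is near that background. Its direction depends on the scaling, because the median of all genes was -0.08 on the log2 scale under TMM and -0.58 when the library totals alone set the scale. With library totals the split was 29 higher and 40 lower, and with trends over gene length and GC content removed, 35 higher and 33 lower. The genes described next are therefore those called in the same direction under 6 settings (TMM, RLE, library totals, length and GC trends removed, DESeq2 and the mouse as a block), of which there were 27 higher and 23 lower in oocytes, unless a sentence says otherwise. The share of all genes called alike under these 6 settings is not given here, so these counts and those by complex have no background beside them.

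Complex I held 10 genes higher and 9 lower in every setting. Ndufb11, a membrane-arm subunit, had joint TMM-scaled CPM of 79.9, 89.9, 91.1, 78.0 and 80.0 in the 5 oocyte mice and of 13.4, 12.7, 16.1, 11.8 and 11.6 in the cumulus pools, a log2 difference of 2.66 (SE 0.12, adjusted p = 7.6e-29). The groups lay far apart. Ndufa11, which helps to hold the membrane arm together, had 74.1 ± 10.8 CPM against 14.6 ± 2.81 (log2 difference 2.34). Among the genes lower in oocytes, Ndufs1 had 23.2, 24.9, 26.3, 25.3 and 25.3 CPM in oocytes and 54.0, 67.6, 59.8, 93.8 and 106.0 in cumulus pools (log2 difference -1.61, SE 0.18, adjusted p = 9.8e-12), again without overlap. Ndufs4 had 14.5 against 40.8 CPM (-1.49). Ndufs6, Ndufs8, Ndufa3 and Ndufc1 were also among those lower in every setting. The flavin-bearing Ndufv1 had 77.7 against 47.9 CPM, a log2 difference of 0.70 under TMM, called there but at 0.18 and not called under library totals.

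Complex II held 2 genes higher and 0 lower in every setting. Sdhd had 185.8, 161.1, 230.3, 171.9 and 179.8 CPM in oocytes and 41.4, 43.5, 47.2, 43.3 and 45.7 CPM in cumulus pools, a log2 difference of 2.07 (SE 0.11, adjusted p = 3.8e-25), and Sdhc, the other anchor, 29.3 against 16.9 CPM. Sdha, the flavoprotein, had 181.3 ± 13.1 CPM in oocytes and 182.6 ± 30.2 in cumulus pools and was not called under TMM (log2 difference -0.01, SE 0.11). Sdhb, the iron-sulfur subunit, had 55.2 against 44.1 CPM, and its difference of 0.32 turned to -0.19 under library totals. The 4 assembly factors of this complex stood higher in oocytes in every setting. Sdhaf4 had 33.2, 33.5, 35.3, 41.01 and 36.9 CPM in oocytes against 2.67, 3.04, 3.95, 3.70 and 1.45 CPM in cumulus pools (log2 difference 3.54, SE 0.21). Sdhaf2, which aids flavin attachment to Sdha, had 72.0 against 15.3 CPM, Sdhaf1 14.1 against 2.04 CPM and Sdhaf3 10.1 against 3.05 CPM.

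Complex III split within its core. Uqcrc1 had 4.26, 5.45, 5.504, 9.05 and 9.38 CPM in oocytes and 121.1, 118.4, 114.5, 91.8 and 95.4 CPM in cumulus pools, a log2 difference of -4.01 (SE 0.21, adjusted p = 3.8e-26). Cyc1 had 11.3, 11.3, 11.6, 8.26 and 11.7 CPM in oocytes and 56.1, 59.0, 60.2, 40.3 and 61.4 CPM in cumulus pools (-2.35, SE 0.16). Both were lower in every oocyte mouse than in any cumulus pool. Uqcrc2 went the other way, with 190.7, 198.8, 225.7, 219.4 and 201.8 CPM in oocytes against 83.4, 99.7, 92.5, 96.2 and 89.9 CPM (1.17, SE 0.09, adjusted p = 3.9e-19). In all, 1 gene of this complex was higher and 4 were lower in every setting, the other 2 being Uqcrfs1 (-0.31) and Uqcrb (-1.64), a small subunit near the quinone site. Uqcrh, the hinge protein, had 79.1 against 42.9 CPM and a log2 difference of 0.88, which was -0.02 once length and GC trends were removed.

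Complex IV held 6 genes higher and 2 lower in every setting. Cox5a, a matrix-side subunit, had 90.9, 82.7, 113.1, 78.6 and 87.1 CPM in oocytes and 20.9, 22.3, 23.6, 21.98 and 28.3 CPM in cumulus pools (log2 difference 1.95, SE 0.13, adjusted p = 3.7e-21). Ndufa4, named as a complex I subunit but since assigned to complex IV, had 101.7 against 51.7 CPM (0.97). Cox4i1, the common form of the largest nuclear subunit, had 137.0 against 94.1 CPM, and Cox6c 66.9 against 46.6 CPM. Their differences of 0.54 and 0.52 under TMM fell to 0.03 and 0.01 under library totals. Cox7a2, of the Cox7a paralogs, had 87.6 ± 10.7 CPM against 49.9 ± 3.803 CPM (SD, n = 5) and was higher in every setting (0.81). The other calls of this complex in every setting, also paralogs, are described below.

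Complex V held 4 genes higher and 7 lower in every setting. Among those lower, Atp5b had 236.8, 256.6, 299.98, 233.8 and 257.6 CPM in oocytes and 620.0, 660.4, 644.8, 637.5 and 735.8 CPM in cumulus pools (log2 difference -1.36, SE 0.08, adjusted p = 1.9e-24). Atp5a1 had 398.3 against 519.7 CPM (-0.38), Atp5c1, the gamma shaft, 53.3 against 80.1 CPM (-0.59), and Atp5d, the delta subunit, 13.6 against 41.4 CPM (-1.61). Atp5j, coupling factor 6 of the outer stalk, had 20.1, 17.9, 18.3, 20.6 and 17.8 CPM against 80.2, 79.2, 83.3, 88.1 and 78.3 CPM (-2.11). Atp5e, the epsilon subunit, was higher with 109.7 against 34.7 CPM (1.65), and Atp5k, a membrane subunit at the dimer interface, had 21.2 against 5.83 CPM (1.84). Atp5o, of the outer stalk, was not called under TMM (92.1 against 79.3 CPM).

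These differences were also read in the 8 other conditions, each on its own mice. Of the 70 genes called at 2 months, 64 kept the direction in all 9 conditions under TMM. The 9 include the mice at 2 months, where the direction is fixed by the selection. The share of all genes that kept their direction is not given here, so this is not shown to be particular to these genes. The exceptions, named after their values were seen, were Sdhb, Cox8b, Atp5c1, Ndufc2, Ndufb7 and Ndufb10. With the mouse as a block, which pairs the oocytes and the cumulus pool of each mouse, 68 genes were called.

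Mitochondrially encoded subunits, the partners of these genes in complexes I, III, IV and V, were all lower in oocytes: 13 of 13 were called, with a median log2 difference of -3.57. Mitochondrial transcripts took 0.439 to 0.682% of counts in oocytes at 2 months and 6.63 to 11.2% in cumulus pools. Of 16 assembly factors of complex I, 11 were higher and 4 lower in oocytes, and of 21 of complex IV, 10 were higher and 6 lower. Calls in these and the other lists here are under TMM alone, where 73.2% of all genes were called, 34.9% higher and 38.3% lower. Single genes turned with length and GC trends removed, such as Ndufaf5 (0.58 to -0.38) and Pet100 (0.66 to -0.20). Among 13 regulators, Ppargc1b, a coactivator of respiratory genes, was higher in oocytes by 4.16 on the log2 scale, and Nrf1 by 1.24. Gabpa, the DNA-binding part of the factor also called NRF-2, was lower (-6.37), and Yy1 as well (-3.25). Gabpa had 1.81 CPM over the summed oocyte libraries and 76.8 CPM over those of cumulus pools. Of 14 genes for cytochrome c, its lyase and ubiquinone synthesis, 5 were higher and 6 lower. Cycs, the somatic cytochrome c, was not called (log2 difference 0.22, adjusted p = 0.10), while Cyct, the form known from testis, had counts in 200 of 200 oocyte libraries, 4.08 CPM over their sum, and in 5 of 199 cumulus libraries. Of 13 genes of the tricarboxylic acid cycle, which feeds complexes I and II, 6 were higher and 5 lower, with a median of -0.10. For complex III the assembly factors split 2 higher and 3 lower of 6, and for complex V 1 and 1 of 4.

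Paralogs were then set against each other. Each gene's share of its set was taken per kilobase in each mouse. Cox4i2, the form of Cox4 known from lung and from cells under low oxygen, made up 7.0 to 50.4% of Cox4 in the cumulus pools of the second set (median 31.7%, n = 30) and 25.2 to 52.1% in the first (n = 11). In oocytes it made up 0.817 to 4.75% in the second set and 0.708 to 11.8% in the first. At 2 months its CPM were 42.8, 36.4, 41.4, 21.3 and 21.3 in cumulus pools and 1.62, 1.68, 1.91, 1.60 and 2.55 in oocytes (log2 difference -4.11, SE 0.38). Within each set every cumulus pool had a higher share than any oocyte mouse, and the cumulus shares spread widely. Ndufa4l2, a paralog of Ndufa4 known to be induced by low oxygen, made up 0 to 27.4% of its set in cumulus pools of the second set and 0.165 to 1.97% in oocytes. It had 5.63 ± 3.53 CPM against 0.793 ± 0.358 CPM at 2 months (-2.83, SE 0.53). In the Cox7a set the shares overlapped, with Cox7a2 at 52.0 to 61.5% in oocytes and 46.5 to 66.8% in cumulus pools of the second set.

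The muscle form Cox6a2 (chr7:128205435-128206387, GRCm38) had counts in 200 of 200 oocyte libraries and in none of 199 cumulus libraries. At 2 months it had 9.99, 9.22, 13.001, 7.99 and 7.77 CPM in oocytes. With 6.75 CPM over the summed oocyte libraries and a floor of 3 counts over all cumulus libraries (0.0139 CPM), it was at least 485-fold higher in oocytes. It made up 2.54 to 8.33% of Cox6a in oocytes, the rest being Cox6a1. Cox8c was also at 0 in all 199 cumulus libraries and had counts in 107 of 200 oocyte libraries, at least 28.5-fold higher by the same floor, and stayed at 5.19% of Cox8 or less. Cox6b2, the form known from testis, had 8.08, 8.94, 11.5, 9.85 and 8.58 CPM in oocytes at 2 months and 0.535, 0.253, 0.132, 1.09 and 0.242 CPM in cumulus pools (log2 difference 4.42, SE 0.42). It made up 10.1 to 22.9% of Cox6b in oocytes and at most 2.40% in cumulus pools, while Cox6b1 had 33.1 against 32.4 CPM and was not called under TMM (log2 difference 0.03, SE 0.13), but was called lower under library totals (-0.48). These intervals and floors cover counting error only.

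The c-ring of complex V is the same protein from 3 genes that differ in the leader peptide. Atp5g3 had 47.3, 36.2, 52.7, 43.8 and 47.7 CPM in oocytes and 372.1, 348.2, 360.1, 385.2 and 378.3 CPM in cumulus pools at 2 months (log2 difference -3.02, SE 0.12, adjusted p = 2.6e-32). Atp5g1 ran the other way with 82.0, 86.0, 95.4, 70.3 and 75.9 CPM in oocytes against 31.6, 28.9, 31.5, 27.2 and 25.6 CPM (1.499, SE 0.14). Atp5g2 was not called under TMM (31.96 against 37.2 CPM). Per kilobase, Atp5g3 made up 79.1 to 89.3% of the set in cumulus pools of the second set, and oocytes shared it about evenly, with 29.95 to 41% Atp5g3, 29.8 to 40.3% Atp5g2 and 26.7 to 33.6% Atp5g1. In the first set, Atp5g3 ranged more widely in oocytes, from 25.1 to 52.8%, and its CPM was highest, at 118.4 on the joint scale, in Old1_2, the label whose oocytes had the most cumulus markers. The part of these markers in that value was not tested. Counts of Atp5g1 and Atp5g2 were not whole in 84.3% and 91.8% of the libraries of the second set, as their reads also fit elsewhere, against 3.14% for Atp5g3.

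**Figure D3:**
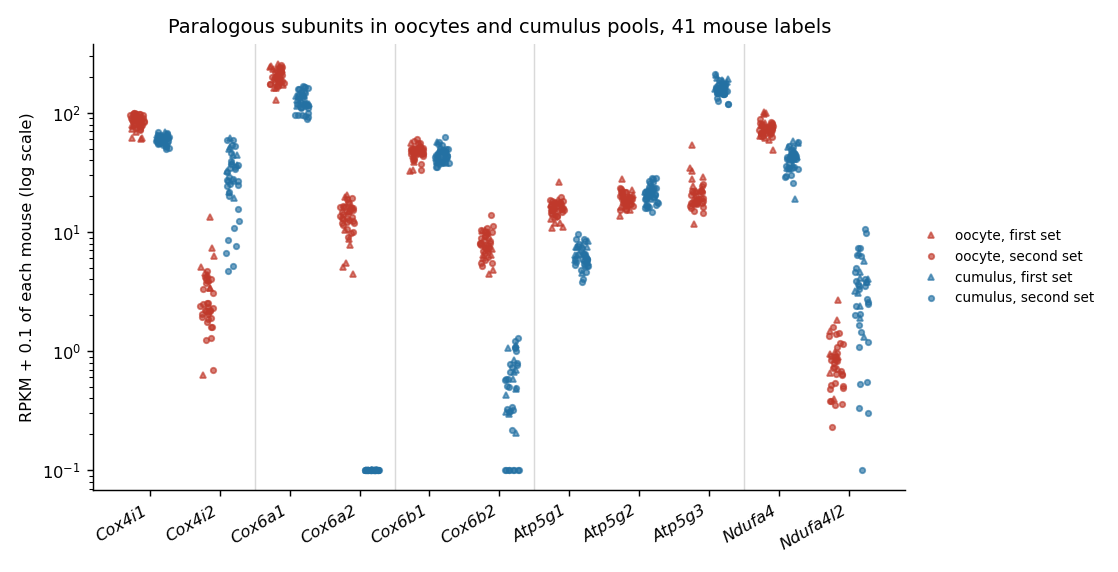
RPKM + 0.1 of 11 paralogous subunit genes (log axis) in oocytes (red) and cumulus pools (blue) of 41 mouse labels. Triangles are the first set and circles the second. Cox6a2 lies at the floor in every cumulus pool, Atp5g3 is higher in every cumulus pool than in any oocyte mouse and Atp5g1 lower, and the Cox4i2 points of cumulus pools are spread more widely than those of Cox4i1.

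Promoters were read from RefSeq (GRCm38.p6), 250 bases before to 50 after each start. Of the 89 genes, 70 were covered, with 75 windows. The remaining 19, Ndufa2 and Atp5a1 among them, were not counted. Members on the chromosome of Ndufa2 and Atp5a1 were left out of the count, so not all of the 19 need lack an entry. The windows of all genes kept that chromosome, so they were not drawn in the same way as those of the members. What this does to the shares was not tested, so the shares hold for the windows counted. The core of the binding site of NRF-1, searched on both strands as GCGCA followed by any base and then GCGC, was found in 20 of 75 windows (26.7%), against 4.6% of 32851 windows of all genes. ACTTCCGG, a site of ETS factors such as Gabpa, was found in 5 (6.67%, against 3.89%) and TATAAA in 3 (4%, against 8.32%). The windows held a median of 19 CpG, against 7 over all. The 100 bases before the start are shown for the paralogs Cox6b1 and Cox6b2 and for the c-ring genes, since these sets part the cell types, with the NRF-1 core in capitals where present:

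Cox6b1 (chr7:30626115-30626214, minus strand): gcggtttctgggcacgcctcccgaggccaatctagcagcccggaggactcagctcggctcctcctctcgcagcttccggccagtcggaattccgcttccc

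Cox6b2 (chr7:4753095-4753194, minus strand): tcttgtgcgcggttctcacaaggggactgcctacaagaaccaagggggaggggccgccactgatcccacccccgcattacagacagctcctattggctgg

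Atp5g1 (chr11:96075632-96075731, minus strand): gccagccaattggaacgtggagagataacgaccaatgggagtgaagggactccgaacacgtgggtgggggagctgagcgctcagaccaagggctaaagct

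Atp5g2 (chr15:102671048-102671147, minus strand): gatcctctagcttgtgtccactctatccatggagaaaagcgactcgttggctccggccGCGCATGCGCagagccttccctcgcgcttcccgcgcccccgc

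Atp5g3 (chr2:73911327-73911426, minus strand): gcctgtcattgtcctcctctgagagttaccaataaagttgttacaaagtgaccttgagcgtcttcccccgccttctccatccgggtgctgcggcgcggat

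Of the printed stretches, that of Atp5g2 held the NRF-1 core, 42 bases before its start. The full window of Atp5g3 held 1 match as well, outside the bases shown. The CpG counts of the printed bases were 9 in Cox6b1, 4 in Cox6b2, 5 in Atp5g1, 11 in Atp5g2 and 6 in Atp5g3. A match is a run of letters and not a measured site.

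Age was compared within each cell type and set, from the youngest group to each older one. From here on, CPM are scaled within a cell type and set, and so differ somewhat from the joint scale above. None of the 89 genes was called in any of the 10 comparisons by edgeR on mice. In oocytes of the second set, the median log2 change of the subunits was -0.01 from 2 to 4 months (1 of 83 at an unadjusted p under 0.05), -0.01 from 2 to 9 months (4) and -0.07 from 2 to 14 months (6), where 0%, 0.0619% and 0.217% of all genes were called and 4.93%, 6.69% and 9.92% had such an unadjusted p. From 2 to 14 months the single changes ran from -0.46 to 0.52. Atp5d had the smallest unadjusted p (log2 change -0.33, SE 0.12, adjusted p = 0.29), and Atp5g3 followed (-0.22, SE 0.08, adjusted p = 0.32). The 5 comparisons of cumulus pools gave medians of -0.03 (2 to 4 months), -0.18 (2 to 9 months), -0.03 (2 to 14 months), -0.06 (young to middle) and 0.01 (young to old), with 1, 3, 5, 3 and 2 genes at an unadjusted p under 0.05 and backgrounds of 0%, 0.0771%, 0.0734%, 0.00378% and 0.0227% called. Over all genes, 5.95%, 8.10%, 7.99%, 5.18% and 3.87% had such an unadjusted p. The comparisons of a set share their youngest group. DESeq2 also called none in these 10 comparisons.

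The cumulus pools at 9 months lay a little below those at 2 months in most subunits: 11 of 82 had a positive change, and the median was -0.18 where that of all genes was -0.003. Cox7a2, a complex IV subunit, had the smallest unadjusted p (log2 change -0.36, SE 0.14, adjusted p = 0.52), and Atp5b followed (-0.25, SE 0.10, adjusted p = 0.52). In both, the mice of the 2 ages did not overlap. Both genes were picked for their small p in the same mice, so this is no separate evidence of a change. Per mouse, the share of the 89 genes was 0.427 to 0.502% at 9 months and 0.498 to 0.551% at 2 months. At 14 months it was 0.443 to 0.565%, which covered the range at 2 months and overlapped that at 9 months, whose lowest value lay below it. In the same pools the mitochondrial share was 7.48 to 14.5% at 9 months and 6.63 to 11.2% at 2 months.

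In oocytes of the first set, 71 of 83 subunits had a positive change from young to old, with a median of 0.31 against 0.05 over all genes, and none was called (12 of 83 at an unadjusted p under 0.05, as 9.79% of all genes were, and 0% of all genes called). Complex V had the highest median (0.40), then complexes III (0.33), I (0.30) and IV (0.28), while complex II stood at -0.01. Cox5b, of the matrix side of complex IV, had 19.2 and 24.5 CPM in the young labels and 34.2 and 30.2 CPM in the old ones (log2 change 0.55, SE 0.18, adjusted p = 0.51). With libraries in place of mice as units, the way the study tested, 4 genes were called higher (Cox5b, Atp5c1, Cox6a2 and Cox7b), where 7.39% of all genes were. The size of the shift varied with the label left out. It was 0.10 without Young1, 0.13 without Old1_2, 0.39 without Old3 and 0.53 without Young2, as the median of all members tested. Old1_2 had 0.445% of its counts in the 89 genes, a mitochondrial share of 1.65% and 1367 CPM of cumulus markers, against 0.353%, 0.656% and 492.3 CPM in Old3. Genes under 1000 bases took 4.39% of counts in Old1_2 and 3.16% in Old3, against 2.59% in Young1 and 3.23% in Young2. With trends over length and GC content removed, the median of the subunits was 0.19. With the share of cumulus markers as a covariate, the median of all members was 0.36, against 0.30 without it. The part of the mitochondrial share in the shift was not tested. From young to middle, the median was 0.13 (65 of 83 positive, none at an unadjusted p under 0.05 against 3.26% of all genes, 0% of all genes called).

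Calorie restriction was compared in 3 CR and 4 Middle mice, all of 9 months. The CR oocyte libraries were deeper, with 2752040 to 4536690 counts against 1903860 to 2624880 in Middle, and diet and depth cannot be told apart. In oocytes, 88 genes were tested, 2 rose and 9 fell by edgeR (adjusted p under 0.05), where 7.68% of all genes were called, 4.58% higher and 3.09% lower. The median change of the subunits was -0.22, against 0.01 over all genes. Of the 88 genes, 32 had counts that were not whole in at most 10% of values. Among these, 0 rose and 2 fell, with a median change of -0.34. The other calls are in genes with more counts that were not whole, whose reads also fit elsewhere. In complex I, Ndufs1 rose and Ndufa13, Ndufb2, Ndufs7, Ndufa11, Ndufab1 and Ndufs8 fell. In complex III Uqcrb rose, in complex IV Cox6a2 and Cox6a1 fell, and in complex V Atp5j2 fell. In each of these 11 genes the CR mice lay wholly above or wholly below the Middle mice. The genes were picked by their p-values in the same mice, so this is no separate evidence. The share of all genes without overlap is not given here.

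Uqcrb (chr13:66900617-66905378, GRCm38) had 2.21, 1.72, 0.930 and 1.28 CPM in Middle oocytes and 4.57, 5.67 and 4.71 CPM in CR oocytes, a log2 change of 1.62 (SE 0.33, adjusted p = 0.0099). Its level was low throughout, and 77.4% of its values in the first set were not whole, as its reads also fit other places in the genome. Ndufs1 had 21.7, 21.8, 11.2 and 18.6 CPM in Middle and 25.5, 32.6 and 32.9 CPM in CR (0.68, SE 0.19, adjusted p = 0.041). The lowest Middle value came from Middle3, with its 1 library.

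Atp5j2, a membrane subunit of the ATP synthase, had 36.6, 41.8, 54.4 and 34.7 CPM in Middle and 16.7, 18.0 and 18.1 CPM in CR oocytes, so CR mice had 42.0% of the Middle level (log2 change -1.23, SE 0.21, adjusted p = 0.0047). Cox6a2 had 5.53, 7.62, 11.2 and 4.07 CPM against 3.08, 1.84 and 2.13 CPM (-1.55, SE 0.32, adjusted p = 0.012). Cox6a1, which led the levels per kilobase in oocytes at 2 months, had 135.1, 129.3, 127.3 and 124.5 CPM against 75.5, 71.3 and 84.4 CPM (-0.74, SE 0.13, adjusted p = 0.0049). The highest CR mouse was well below the lowest Middle mouse. Ndufa13, also known as GRIM-19, had 19.3, 23.3, 25.6 and 21.4 CPM against 11.1, 12.1 and 11.7 CPM (-0.93, SE 0.18, adjusted p = 0.0082), and Ndufb2 13.8, 15.7, 15.8 and 12.8 CPM against 8.86, 7.17 and 7.97 CPM (-0.86, adjusted p = 0.023). The other 4 that fell changed by -0.60 to -0.68.

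**Figure D4:**
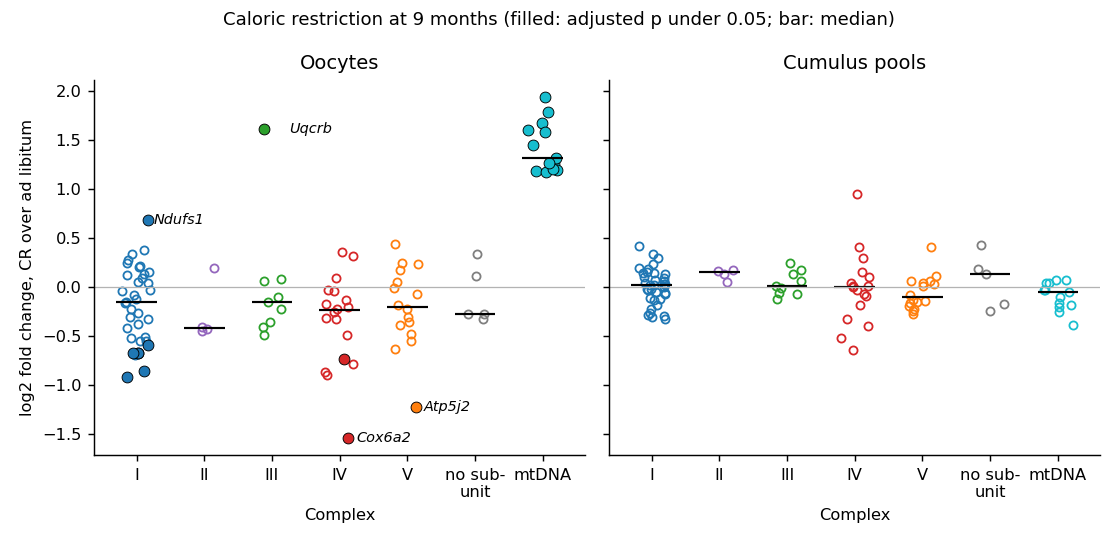
Log2 fold change from Middle to CR (vertical) for each gene, by complex and for the 13 subunits of mitochondrial DNA, in oocytes (left) and cumulus pools (right). Filled points had an adjusted p under 0.05, open ones did not, and bars are medians. In oocytes the mitochondrially encoded subunits lie at 1.17 or above while most nuclear ones lie below 0, and no point is filled in cumulus pools.

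Gene length and base content moved with the diet groups. Genes under 1000 bases took 2.56 to 2.83% of counts in CR oocytes and 2.86 to 3.69% in Middle oocytes. With trends over length and GC content removed, the median of the subunits was -0.04 and 1 gene rose (Uqcrb, 1.53) and 6 fell. Of these, Atp5j2 (-1.19), Cox6a2 (-1.28), Ndufb2 (-1.07) and Ndufab1 (-0.85) were also called without this step, while Cox5a (-0.56) and Atp5o (-0.44) were called with it alone. Cox6a1 (-0.23), Ndufa13 (-0.46), Ndufa11 (-0.39), Ndufs7 (-0.26), Ndufs8 (-0.29) and Ndufs1 (0.48) were not called there. With libraries as units 11 genes rose and 33 fell, where 30% of all genes were called, and with the 2 libraries that went against their labels included, none rose and 4 fell. Leaving out a mouse gave 4 (without CR2) to 12 calls (without Middle3), with 5 without CR1 or Middle2 and 6 without CR3. In the deposited RPKM values, all 11 called genes had the same direction and no overlap between groups. These values come from the same libraries as the calls, so they are no independent check. Uncalled genes such as Ndufb5 and Cox7b did not overlap there either. In CR libraries these RPKM matched the counts in 0.9685% of the values of these genes. Cumulus markers were 325.3 to 715.9 CPM in CR and 121.8 to 1185 CPM in Middle oocytes, and so overlapped. The 5 endothelial markers summed to 110.9 to 120.1 CPM in CR and 84.4 to 98.2 CPM in Middle oocytes, and their part was not tested. They summed to 87.4 to 98.9 CPM in Young and Old oocytes, and to 3.45 to 16.9 CPM in the cumulus pools of the CR and Middle mice.

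The subunits encoded by mitochondrial DNA rose in CR oocytes, 13 of 13, with a median of 1.32. mt-Co2 had 94.5, 88.8, 79.9 and 80.2 CPM in Middle and 336.0, 335.5 and 319.3 CPM in CR oocytes (log2 change 1.94, SE 0.17, adjusted p = 0.00015), and mt-Co1 581.8, 599.8, 597.7 and 641.1 CPM against 1552, 1418 and 1561 CPM (1.32, SE 0.14). The median was 1.23 with length and GC trends removed. All mitochondrial transcripts together took 0.977 to 1.73% of counts in CR and 0.717 to 0.849% in Middle oocytes. Nuclear copies of mitochondrial sequence can share such reads. Of the other lists, single genes changed. Among assembly factors Cox19 (-1.57), Dmac1 (-1.06), Ndufaf8 (-0.61) and Surf1 (-0.48) fell and Lyrm7 (1.17), a factor for the Rieske protein, and Atpaf1 (0.88) rose. Of the regulators Polrmt, the mitochondrial RNA polymerase, fell (-0.93), and of the tricarboxylic acid cycle Sucla2 (0.77) and Dld (0.57) rose and Mdh2 (-0.47) fell. Of the ubiquinone genes, Coq3 rose (0.68) and Coq6 fell (-1.29), and the complex II factors had none called.

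In cumulus pools of the same mice, none of 87 genes was called by edgeR (0.0642% of all genes called), with 6 subunits at an unadjusted p under 0.05 (10.6% of all genes) and 1 called by DESeq2 (Atp5j). The median change of the subunits was 0.01 and that of all genes 0.04. The CR cumulus libraries were deeper too, with 1568220 to 2501010 counts against 848243 to 1269680 in Middle. Diet and depth therefore cannot be told apart here, nor in the test of the responses below. Atp5j had a log2 change of -0.25 (SE 0.10, adjusted p = 0.42) and Cox4i2 -0.65 (SE 0.28, adjusted p = 0.45). The difference between the responses of oocytes and cumulus pools was tested directly. Uqcrb passed, with a difference of 1.92 (SE 0.43, adjusted p = 0.038), where 0.503% of all genes were called. The call did not hold with length and GC trends removed (1.79, adjusted p = 0.073), nor without any single mouse other than Middle3. With the mouse as a block Uqcrb was the 1 gene called (1.94, adjusted p = 0.0065). For the 9 genes that fell in oocytes, this test called none under TMM. Under RLE scaling and under library totals it called Cox6a1, Ndufab1 and Ndufa11 lower in both cases, with differences of -0.67, -0.97 and -1.10 under RLE. DESeq2 called 12 genes in this test, 4 higher and 8 lower. Of the 13 mitochondrially encoded subunits, 11 passed it, all higher in the oocyte response, with a median difference of 1.69.

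Hyperovulation was compared at 2 months, 5 mice with and 8 without. In cumulus pools 1 gene rose with it, Cox4i2 (chr2:152754173-152765037, GRCm38), where 1.97% of all genes were called. Without hyperovulation its values were 4.35, 4.71, 6.25, 7.05, 10.05, 11.5, 23.1 and 25.1 CPM, with a median of 8.55, and with it they were 25.3, 25.3, 43.5, 48.5 and 50.9 CPM. The groups did not overlap, though the 2 highest without came within a short distance of the 2 lowest with (log2 change 1.75, SE 0.36, adjusted p = 0.0070). Ndufa4l2 had a median of 0.935 CPM without and 4.83 CPM with hyperovulation and missed the threshold (1.88, SE 0.58, adjusted p = 0.077), with overlap, as 1 mouse without had 8.38 CPM. It passed with DESeq2, with the label prefix (B1 or B2) as a covariate, and with mouse 2moNoH7 or 2moNoH9 left out, 2 genes in each case. Their common paralogs were not called. Cox4i1 had 111.7 CPM with and 114.1 CPM without, and Ndufa4 a change of -0.32 (adjusted p = 0.27). Among mice of prefix B1 the Cox4i2 change was 1.55 and called, and among those of B2 1.85 and not called (adjusted p = 0.175).

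The median change of all subunits in cumulus pools was 0.10, against -0.02 over all genes. Of them 10 had an unadjusted p under 0.05, as had 15.4% of all genes. After Cox4i2 and Ndufa4l2, the smallest was that of Ndufc1, of the membrane arm of complex I (0.73, adjusted p = 0.11). With libraries as units 9 genes rose and 3 fell, where 13.2% of all genes were called. Cumulus markers were 13330 to 16380 CPM with and 8224 to 14640 CPM without hyperovulation, and their part in the Cox4i2 change was not tested. The older hyperovulated groups lay at 7.87 to 55.2 CPM of Cox4i2 at 4 months, 18.5 to 26.96 CPM at 9 months and 23.1 to 36.9 CPM at 14 months.

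**Figure D5:**
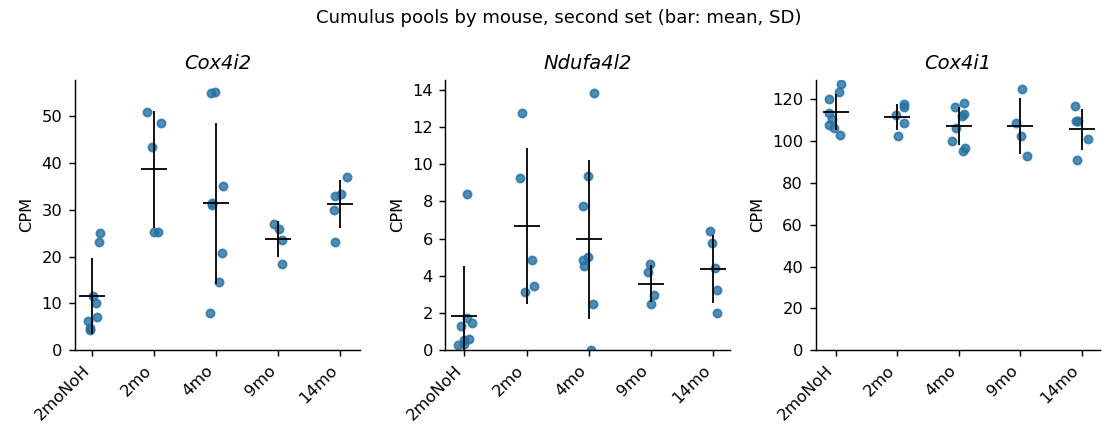
CPM of Cox4i2, Ndufa4l2 and Cox4i1 in the cumulus pools of each mouse of the second set, without hyperovulation (2moNoH) and with it at 4 ages. Points are mice, and bars mean and SD. For Cox4i2 all 5 mice at 2 months lie above all 8 without hyperovulation, while Cox4i1 lies between 90.9 and 127.6 CPM in every group.

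In oocytes, none of the 88 genes was called with against without hyperovulation by edgeR or DESeq2 (0% of all genes called), and 1 had an unadjusted p under 0.05, as had 4.53% of all genes. The median change of the subunits was -0.03. The difference between the responses of oocytes and cumulus pools called none either (0.344% of all genes called, 3 subunits and 8.23% of all genes at an unadjusted p under 0.05). For Cox4i2 that difference was -1.24 (SE 0.56, unadjusted p = 0.030, adjusted p = 0.51), so its response was not shown to differ between the cell types.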

How the data were processed

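RamDA-seq libraries of single oocytes and of cumulus pools were used. Per the labels, the submitters' processing notes and the study's methods, reads were aligned to GRCm38 with HISAT2 2.0.5 and assigned to GENCODE genes with featureCounts 1.5.1. The authors deposited expected counts per gene, in which a read that fits several places is shared out in fractions, which left a fraction in 36.77% (first set) and 35.09% (second set) of the values above 0. RPKM values deposited by the authors for the first set were used for 1 check of the calorie restriction calls. They matched the counts in 100% of the values of the subunit genes in AL libraries and in 0.9685% in CR libraries (tolerance 0.1%). The unit had been planned as counts and was expected counts, which were summed per mouse label and rounded.

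Genes with a rounded count of at least 1 in at least 5 libraries were tested with edgeR 4.0.16 in R 4.3.3 (quasi-likelihood, TMM scaling, limma 3.58.1 loaded with it), with all groups of a cell type and set in 1 fit and p-values adjusted over all genes tested. DESeq2 1.42.0, RLE scaling, library totals, other filters, trends over length and GC content, libraries as units, a replicate block, the label prefix, the 2 left-out libraries and each mouse left out were tried as alternatives. Library totals and the fits within a prefix were added after the data were seen. Scripts were tested on simulated data. The mouse label was the unit of replication, and p-values measure the spread between these labels. No 2 libraries held identical values. Counts are of reads without molecular identifiers, so floors cover counting error only. Depth was between 510029 and 4536690 counts per library.

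Both cell types came from the same mice, so the mouse pairs them. Deviations of the oocytes and the cumulus pool of a mouse from their group means correlated at 0.06 on average over 11 labels of the first set (-0.05 to 0.12) and at 0.09 over 30 mice of the second (-0.08 to 0.21).

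The members and the gene lists were chosen with earlier results of these data known. Genes named are up to 2 called per complex and direction with the largest change and a mean of at least 10 CPM, the paralog sets, 1 to 3 central subunits per complex, the highest and lowest levels and the members that are no subunits. Others, such as those with the smallest p of an age comparison or all called members of a list, were named after their values were seen. Some genes are not reported here.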

Additional observations from a re-analysis of the deposited data

Results flagged for a closer look

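In groups of 4 to 10 mice, the summed CPM of a complex was checked for a mouse far from the others (Dixon's test at 95%), in 60 groups, of which chance alone gives about 1 in 20. In 3 of them a mouse stood apart. The complex V genes of the cumulus pools of mouse 2mo36 summed to 2664 CPM, the highest of 5 mice at 2 months, where the others had 2410 to 2466 CPM. The complex I genes of the cumulus pools of mouse 2moNoH10 summed to 1387 CPM, the highest of 8 mice without hyperovulation, where the others had 1004 to 1183 CPM. The complex II genes of the oocytes of mouse 14mo39 summed to 343.2 CPM, the lowest of 5 mice at 14 months, where the others had 350.8 to 353.1 CPM.

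The response of Uqcrb to calorie restriction differed between oocytes and cumulus pools by 1.922 on the log2 scale (SE 0.4293, edgeR adjusted p = 0.03756), by the test of the difference itself.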

How the results depend on the processing

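The number of genes called was the result followed through 17 comparisons. Of 170 alternative fits other than those leaving out a mouse, 151 stayed within 1.5 times of the reported count and 19 did not. With libraries as units, the count was 4 in oocytes from young to old, 44 in CR oocytes, 1 (Atp5l) in cumulus pools from young to middle, 2 in CR cumulus pools, 1 (Cox7a2) in cumulus pools from 2 to 9 months and 12 with hyperovulation. In CR oocytes it was 17 with no filter, 7 with length and GC trends removed, 20 with DESeq2 and 4 with all deposited libraries. DESeq2 called 1 in CR cumulus pools and 2 with hyperovulation. The prefix as a covariate gave 2 with hyperovulation, and the mice of B2 alone gave 0. The mice of B1 alone gave 1 in oocytes from 2 to 14 months (Uqcrc1, higher). For the test between the CR responses, RLE scaling and library totals gave 4 each, length and GC trends removed gave 0 and DESeq2 12. The cause of these differences was not tested.

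Leaving out a mouse gave 4 to 12 calls in CR oocytes, 1 to 2 with hyperovulation, 0 to 1 for the test between the CR responses and 65 to 70 between cell types, and 0 in the rest. The replicate block that pairs the cell types of a mouse called 68 genes between cell types, 1 between the CR responses and 0 between the hyperovulation responses, each within 1.5 times of the unblocked count.

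Between cell types, the direction of some genes turned. Under library totals the log2 difference was -0.22 for Cox5b, -0.027 for Ndufs3, -0.10 for Ndufb6, -0.19 for Sdhb, -0.25 for Ndufc2, -0.12 for Uqcr11 and -0.18 for Cox8a. With length and GC trends removed it was -0.61 for Cox5b, -0.090 for Ndufs3, -0.019 for Uqcrh, -0.26 for Sdhb, -0.18 for Ndufc2, -0.41 for Atp5h, -0.056 for Ndufb10 and -0.10 for Cox7a2l. All of these were above 0 under TMM. Genes of a few CPM, such as Cox8c and Ndufa4l2, are limited by depth.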

Other observations

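Cox4i2 varied widely among cumulus pools within a condition, and after its values were seen it was set against Ndufa4l2 and Ndufa4 over mice, as log2(CPM + 1) with condition means subtracted (4 relations, two-sided permutation within conditions, 100000 resamples, Benjamini-Hochberg adjustment). In the second set, Cox4i2 and Ndufa4l2 correlated over 30 mice with a Pearson r of 0.722 (permutation p = 0.00027, adjusted p = 0.0011) and a Spearman rho of 0.65 (p = 0.00074), and r was 0.527 without the 2 mice farthest from the median of Cox4i2. The relation did not pass within either label prefix, with r of 0.509 in 16 mice of B1 (permutation p = 0.33) and 0.796 in 14 mice of B2 (permutation p = 0.097), and without the 2 farthest mice r was 0.0589 and 0.0438 there, so it rests on those mice. In the first set r was 0.834 over 11 labels (permutation p = 0.038, adjusted p = 0.038) and rho 0.709 (p = 0.08), and r was 0.606 without the 2 farthest. Cox4i2 and Ndufa4 ran opposite to each other, with r of -0.556 (permutation p = 0.00077, adjusted p = 0.0015) and rho of -0.599 (p = 0.0015) over 30 mice of the second set and r of -0.927 (permutation p = 0.005, adjusted p = 0.0067) and rho of -0.927 (p = 0.0032) over 11 labels of the first. Without the 2 farthest, r was -0.505 and -0.835. Within prefixes r was -0.452 (permutation p = 0.16) in B1 and -0.49 (permutation p = 0.083) in B2. Without the 2 farthest mice it was -0.277 and -0.146 there, so this relation too rests on those mice within the prefixes. The values of a mouse share its libraries and their depth.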
